A study of Homo sapiens with 19 samples.

Results

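Score C, a measure of ribose methylation in ribosomal RNA, was compared between the 3 RiboMethSeq libraries of Kasumi-1 cells that lack the small nucleolar RNA SNORD127 and the 2 libraries that have it, which together make 5 of the 19 libraries of the series. Kasumi-1 is an established acute myeloid leukaemia cell line. The libraries were taken by their titles. Those lacking SNORD127 came from knockout clone C1, knockout clone C34, and clone C1 with an empty vector. Those having it came from a clone titled as the control knockout clone, without re-expression, and from clone C1 with SNORD127 re-expressed. None of the 5 was treated with doxycycline, and the labels do not describe the edit or the vector. The other libraries of the series, which gave the spread in some fits, were knockdown libraries of Kasumi-1 cells grown with doxycycline at 100 ng/ml. They were control knockdowns, with or without empty vector, and knockdowns of the methyltransferase fibrillarin (FBL). The FBL knockdowns were without vector or with empty vector, wild-type FBL, or the FBLTri or FBLQua mutant. The column of the control clone is named like those of the knockout clones (SNORD127KOC3), so its place rests on its title and on the characteristics, which call it a control knockout. Each library is 1 sample, the knockout is represented by 2 clones, and 3 of the 5 libraries come from clone C1, so the libraries are not fully independent. The labels do not say whether libraries came from separate cultures, so p-values reflect only the spread among them, which may be technical. The knockout and the re-expression could not be checked at SNORD127 itself, since only rRNA positions were counted.

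Box C/D small nucleolar RNAs pair with ribosomal RNA and place the methyltransferase fibrillarin (FBL) on 1 nucleotide, whose ribose then receives a methyl group at the 2′ oxygen. The paired stretch sets the target, so a guide usually serves only 1 or a few sites. SNORD127 is a box C/D guide, and in the RefSeq annotation (GRCh38.p14) its gene lies within the span of PRPF39, which encodes a pre-mRNA processing factor. The deposited table assigns SNORD127 to 18S-1447, a position of the small subunit rRNA known as Gm1447, and to no other listed site. A methylated ribose resists alkaline hydrolysis, so fewer fragments end beside it. Score C sets the number of ends at the nucleotide after the site against the weighted mean of the 6 positions on either side of that nucleotide, and nears 1 at a fully methylated site. The deposited table holds 120 sites: 47 lie in 18S rRNA, 71 in 28S and 2 in 5.8S. Sites are numbered along each rRNA as in that table, without genome coordinates.

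The 5 libraries held 12196305 to 18835537 end counts, and the 2 with a vector were the shallowest, at 12196305 (empty vector) and 12431703 (SNORD127). Mean flanking counts per site had a median of 1368 and a minimum of 99.1, and the half-width of the 95% counting interval of a score was 0.0105 in the median and 0.262 at most. Such intervals cover counting error only, since the reads carry no molecular identifiers. No pair of libraries agreed within sampling noise, with a chi-square per position of 18.3 to 91.5.

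The loss of SNORD127 went with a lower score at its own site. Score C at 18S-1447 was 0.178 in clone C1, 0.254 in clone C34 and 0.0611 in clone C1 with empty vector. It was 0.543 in the control clone and 0.951 in clone C1 with SNORD127. All 3 libraries lacking SNORD127 lay below both that have it, and the gap between the nearest, clone C34 and the control clone, was 0.289. The counting error was much smaller than this gap: the 95% half-width was 0.0417 at the lowest score and 0.0092 at the highest. The site was the one that changed most of the 120.

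**Figure D1:**
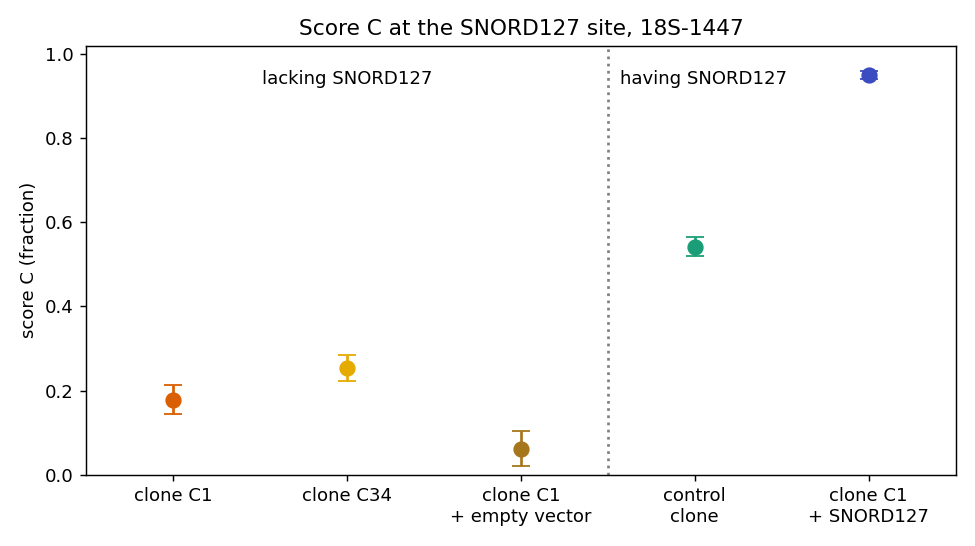
Score C (vertical axis, fraction) at 18S-1447 in each of the 5 libraries; points are the deposited scores and bars the 95% counting intervals of single libraries. The 3 libraries lacking SNORD127 sit between 0.0611 and 0.254, below the control clone at 0.543 and the re-expression library at 0.951.

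The counts behind these scores show the same order. At the counted nucleotide, position 1448 of 18S, clone C1 had 2337 ends against a flanking mean of 2842, clone C34 had 2462 against 3298, and clone C1 with empty vector had 2109 against 2246. The control clone had 1630 ends against 3564. Clone C1 with SNORD127 had 108 ends against a flanking mean of 2218. Ends at this nucleotide thus made up 74.6 to 93.9% of the flanking mean without SNORD127, 45.7% in the control clone and 4.87% after re-expression. The relative end count was 19.3 times as high with empty vector as with SNORD127 in clone C1. It was 1.80 times as high in clone C1, and 1.63 times in clone C34, as in the control clone.

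**Figure D2:**
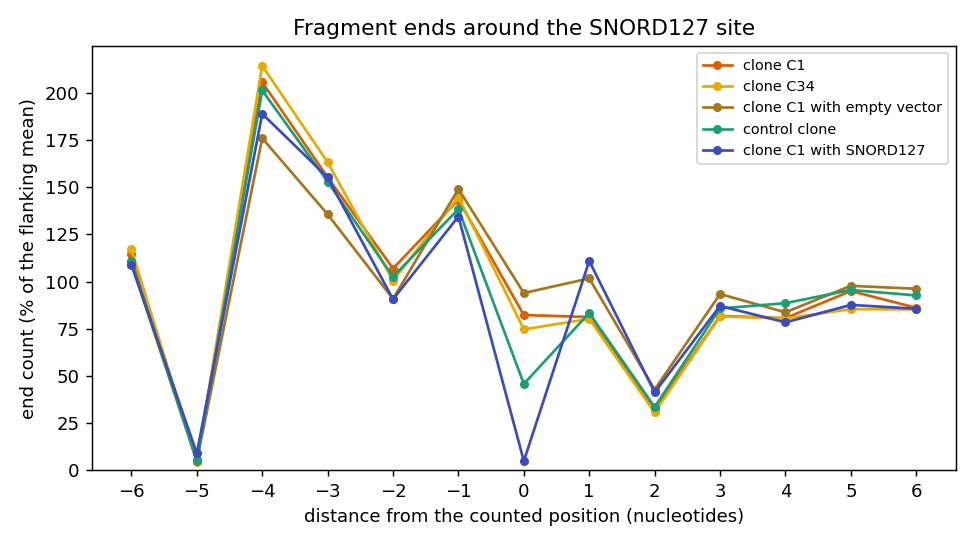
Fragment ends at the nucleotide counted for 18S-1447 (distance 0) and 6 nucleotides on either side, as percent of the flanking mean of each library (vertical axis); each line is 1 library. The widest spread is at distance 0, from 4.87 to 93.9%, and smaller spreads are seen at other distances, such as -4; the dip at distance -5 belongs to the neighbouring site 18S-1442.

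The mean score at 18S-1447 was 0.164 ± 0.0969 (SD, n = 3) without SNORD127 and 0.747 ± 0.289 (SD, n = 2) with it, a difference of -0.583 (SE 0.143, 95% interval -0.974 to -0.191). In the fit of these 5 libraries alone, whose spread includes that between the control clone and the re-expression library, limma called 0 of 120 sites (0% called, adjusted p under 0.05), and 18S-1447 had adjusted p = 0.843 over the 120 sites (unadjusted p = 0.0141). At an unadjusted p under 0.05 there were 4 sites by limma and 2 by edgeR. By p in limma 18S-1447 ranked 2, behind 18S-644 (change 0.00486, unadjusted p = 0.00985, adjusted p = 0.843). With the spread taken from all 19 libraries the same difference had SE 0.0598 and adjusted p = 0.000369 by limma, and 18S-1447 was the only site called (0.833% called). In that fit each group had its own mean, so the gap between the control clone and the re-expression library did not enter the spread. The spread came from pairs of libraries within a group, mostly knockdown groups grown with doxycycline. The FBL knockdown libraries with the FBLTri or FBLQua mutant all scored 0 at 18S-1447, so those groups showed no spread there. Over the 16 alternatives the adjusted p ranged from 0.000369 to 1, the site was lower in all 16 and called in 2. The value without the re-expression library was -0.378, and the adjusted p by limma was then 0.966. The other alternative that called it kept the 5 libraries and made their medians over the sites equal (-0.584, adjusted p = 0.000719 by limma). The call thus differed both with the libraries that gave the spread and with the scaling. The change itself was -0.583 or -0.584 in those fits, so its size did not set them apart. The adjusted p also rests on the spread that limma estimated and on its degrees of freedom, whose parts were not separated.

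The comparison has 2 parts that share no library, though both hold clone C1. Against the control clone, the knockout clones changed at 18S-1447 by -0.365 in clone C1 (95% counting interval -0.406 to -0.324) and by -0.289 in clone C34 (-0.327 to -0.251). The mean change of -0.327 (SE 0.0802) had adjusted p = 0.301 by limma with the spread of all 19 libraries, the lone control clone being assumed to vary like the other groups. No site was called (0% called, 3 sites at an unadjusted p under 0.05), and 18S-1447 had the smallest p of the 120. Within clone C1 the empty vector library differed from the SNORD127 library by -0.890 (95% counting interval -0.933 to -0.847). There 18S-1447 was called, with a change of -0.890 (SE 0.0926, adjusted p = 0.000418 by limma), and no other site was (0.833% called, 3 sites at an unadjusted p under 0.05). Each side of this comparison is 1 library, so its SE and p come wholly from the spread within other groups, which both libraries are assumed to share. This call was lost, with adjusted p = 0.277, when the 5 libraries alone gave the spread; the adjusted p ranged from 0.000222 to 0.277 over the 9 alternatives. The change on re-expression exceeded that between the clones by 0.563 (SE 0.123), a difference that was not called (adjusted p = 0.137 by limma, 0% called, 2 sites at an unadjusted p under 0.05).

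**Figure D3:**
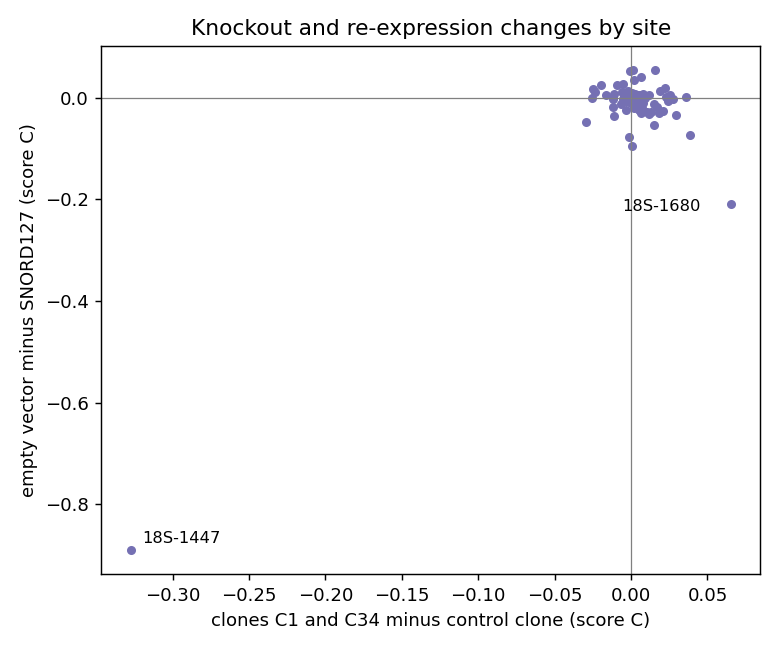
Change in score C at the 120 sites between clones C1 and C34 and the control clone (horizontal axis) and between clone C1 with empty vector and with SNORD127 (vertical axis, another scale); each point is a site. 18S-1447 lies apart at -0.327 and -0.890, and 18S-1680 at 0.0651 and -0.209 shows opposite signs.

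The control clone was not near full methylation at this site. Its score of 0.543 differed from that of clone C1 with SNORD127 by -0.409 (95% counting interval -0.433 to -0.384, for these 2 libraries). Control knockdown libraries of the same cell line, which were grown with doxycycline at 100 ng/ml and are not part of the comparison, scored 0.577 to 0.756. The highest, 0.756, was replicate 2 of control knockdown with empty vector, in which 20.8% of all ends fell at 1 position of 28S. The rest of them scored 0.577 to 0.627. The re-expression library was thus above the control clone and all 4 control knockdown libraries, a difference that was not tested. FBL knockdown libraries, with or without empty vector, scored 0.000717 to 0.275 at 18S-1447, a range that holds all 3 SNORD127 knockout values. The knockout libraries differed among themselves: clone C1 differed from clone C34 by -0.0757 (95% counting interval -0.122 to -0.0297), and clone C1 with empty vector from clone C1 without a vector by -0.117 (-0.171 to -0.0625).

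At the other 119 sites the changes were small. Their median absolute change between lacking and having was 0.0031, 92 changed by less than 0.01 and 118 by less than 0.05. The largest, at 18S-1680, was -0.0524, so that with the deposited scores the change at 18S-1447 was 11.1 times as large as any other. Precision differed between sites: the 95% interval of the change had a half-width of 0.0193 in the median, up to 0.207, and at 107 of the 119 sites it lay wholly within 0.1 of no change. At the remaining sites the interval extended past 0.1 in at least 1 direction, so a change of that size was not excluded there. Among the 119, 4 sites scored 0, the floor of the score, in all 5 libraries. These sites count among the 92, the 118 and the 107, though a change below the floor could not be seen at them. The mean score over the 120 sites was 0.860 ± 0.0104 (SD, n = 3) without SNORD127 and 0.863 ± 0.00289 (SD, n = 2) with it. A two-sided exact permutation test of the difference of -0.00355 over 10 arrangements, a design that cannot reach 0.05, gave p = 1. Without 18S-1447 the difference in means was 0.00132.

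**Figure D4:**
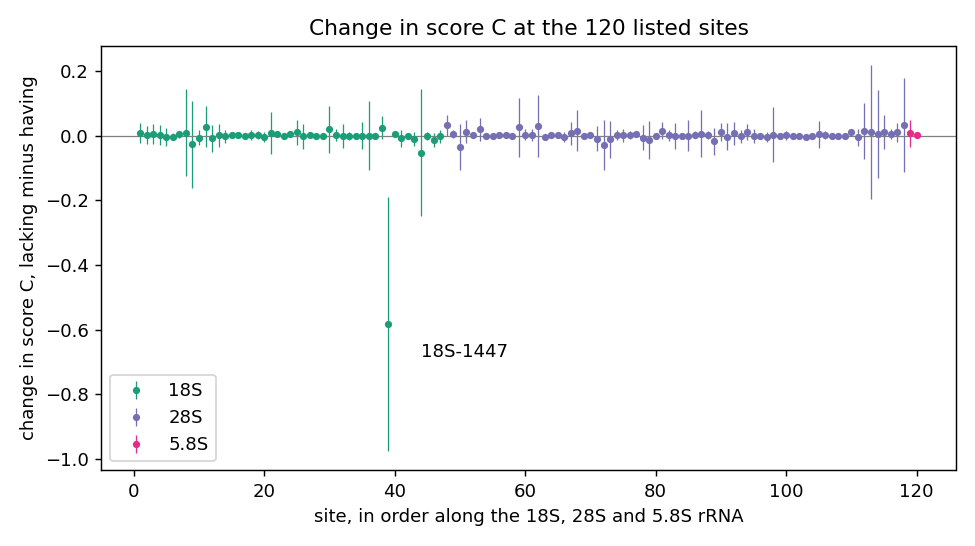
Change in score C (vertical axis, lacking minus having SNORD127) at the 120 sites in order along 18S, 28S and 5.8S rRNA; points are the differences of means and bars their 95% intervals from limma on the 5 libraries. 18S-1447 stands at -0.583, and the other points lie between -0.0524 and 0.0329.

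The 2 groups did not overlap at 14 sites: all 3 libraries lacking SNORD127 lay below both others at 8 (6.67%) and above both at 6 (5%). Full separation in a given direction is 1 of the 10 arrangements of these libraries, so shares of this size do not by themselves mark a difference. 18S-1447 was 1 of the 8 sites below. 28S-389, guided by SNORD26, had the second largest change among the 14. It scored 0.950 in clone C1, 0.971 in clone C34, 0.983 with empty vector, 0.945 in the control clone and 0.928 with SNORD127. The empty vector library was highest and the SNORD127 library lowest, and the change of 0.0314 (95% interval -0.00176 to 0.0646) was not called. 18S-1678 (SNORD82) had a change of -0.0104, 28S-4493 (SNORD29) of 0.00972, 28S-2527 of -0.00969, 18S-644 (SNORD54) of 0.00486, 28S-4276 (SNORD41) of -0.0048, 18S-683 (SNORD19 and SNORD19B) of 0.00451 and 18S-512 (SNORD70) of 0.00235. None of these passed the test.

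The nearest listed neighbours of 18S-1447 are 18S-1442, guided by SNORD61, and 18S-1441, listed with a predicted guide, and their counted nucleotides lie within its flanks. 18S-1442 scored 0.953 in clone C1, 0.960 in clone C34, 0.953 with empty vector and 0.950 in the control clone, and 0.913 in clone C1 with SNORD127. The re-expression library was thus the lowest, while the other 4 lay between 0.950 and 0.960. The empty vector library exceeded it by 0.0409 (95% counting interval 0.0258 to 0.0559), and limma did not call this (adjusted p = 0.783). The end count for 18S-1442 was 198 against a flanking mean of 2266 with SNORD127, and 109 against 2343 with empty vector. With the nucleotides of other listed sites left out of the flanks 18S-1442 scored 0.917 with SNORD127 and 0.953 with empty vector. 18S-1441 scored 0 in all 5 libraries. Leaving other listed sites out of the flanks of 18S-1447 gave 0.263, 0.332 and 0.148 in clone C1, clone C34 and with empty vector, and 0.589 and 0.956 in the control clone and with SNORD127.

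No site was called between lacking and having, so no list by place, guide host or methylation level could hold a called member. In 18S the median change over the 46 other sites was 0, with 3 sites fully below and 4 fully above when 18S-1447 is counted; in 28S it was 0.000919 over 71 sites, with 5 below and 2 above. The 17 other sites of 18S beyond position 1200, the stretch that holds 18S-1447 and forms the 3′ domain, had changes of -0.0524 to 0.0243, with the largest at 18S-1680 (-0.0524), 18S-1442 (0.0243) and 18S-1272 (SNORD66, 0.019). Towards the 5′ end of 18S, the 23 sites up to position 670 had changes of -0.0267 (18S-186) to 0.028 (18S-436, SNORD100), and 18S-174 (SNORD45C) had 0.00885. Between these stretches, 6 sites had changes of -0.00284 to 0.0102, and 18S-797 had the largest change. In 28S the ranges were -0.0349 to 0.0314 up to position 2000, -0.0295 to 0.0144 from there to 3500, -0.0174 to 0.0149 from there to 4100, and -0.00539 to 0.0329 above 4100, the end that folds into the peptidyl transferase centre. 28S-4469, a site known to be methylated by the protein enzyme FTSJ3 without a guide, had a change of -0.000401 (95% interval -0.00584 to 0.00504). In 5.8S rRNA, 5.8S-14 (SNORD71) had a change of 0.00655 and 5.8S-75 (SNORD96A and SNORD96B) of 0.000742.

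GAS5, SNHG1 and RPL13A are genes whose introns carry several box C/D guides. The 10 sites of GAS5 guides had a median change of 0.0017, with 28S-3866 (SNORD47) at 0.0112 and 28S-3809 (SNORD79) at 0.0108. The 8 sites of SNHG1 guides had a median of 0.00237, with 28S-389 (SNORD26) at 0.0314 and 28S-3804 (SNORD30) at -0.0174, and the 5 sites of RPL13A guides a median of -0.000244 with the largest change, -0.00539, at 28S-4506 (SNORD35A and SNORD35B). No member was called in any of these lists, against 0% of all sites. For SNORD14, SNORD43 and SNORD104 the values by library were as follows. 18S-462 (SNORD14A and SNORD14B) had 0.852 in clone C1 and 0.884 to 0.889 in the other 4 libraries. 18S-1703 (SNORD43) had 0.982 to 0.995 in all 5, and 28S-1327 (SNORD104) had 0.927 to 0.970. 18S-1705, listed with a predicted SNORD43 target, scored 0.0257 in the control clone and 0 in each of the others.

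The sites were also grouped by their scores in the knockdown libraries. Of the 27 sites with a mean under 0.9 in the 4 control knockdown libraries, 26 are not 18S-1447, and their median change was 0 (range -0.0524 to 0.0329). Of the 39 sites that fell by 0.1 or more on FBL knockdown both with and without vector, 38 are not 18S-1447. Their median change was 0.000965 (range -0.0128 to 0.0314), against 0.000742 over the 119 sites. 28S-1868 (SNORD48), one of the 39, had 0.668, 0.724 and 0.680 without SNORD127 and 0.696 and 0.627 with it, so the groups overlapped. The libraries behind both splits are separate from the 5 compared here.

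More sites separated by vector than by SNORD127. Both libraries with a vector scored below all 3 without at 49 of the 120 sites (40.8%) and above them at 4 (3.33%), with a median difference of -0.00555. 28S-4560 (SNORD119) scored 0.526 with empty vector and 0.545 with SNORD127, against 0.677 in clone C1, 0.684 in clone C34 and 0.692 in the control clone. At 28S-4588 (SNORD91 guides) the vector libraries had 0.525 and 0.556 and the others 0.614 to 0.650, and at 28S-4541 (SNORD63) 0.901 and 0.888 against 0.958 to 0.961. The mean with a vector minus that without was -0.104 at 28S-4937, -0.0947 at 18S-174 and -0.0733 at 18S-186. The 2 vector libraries were also the shallowest and both come from clone C1; the part of the vector, the depth and the handling of these libraries in the difference was not tested. Each of the 2 groups holds 1 vector library, and with the vector as a term the change at 18S-1447 was -0.568 (adjusted p = 0.993 by limma on the 5 libraries).

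**Figure D5:**
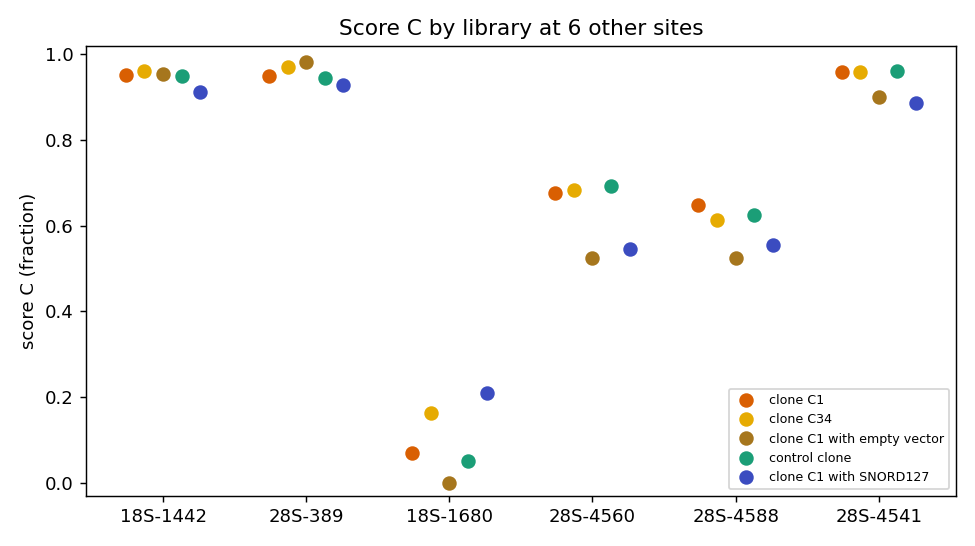
Score C (vertical axis, fraction) in each of the 5 libraries at 6 sites other than 18S-1447; each point is 1 library. At 28S-4560, 28S-4588 and 28S-4541 both vector libraries lie below the other 3, at 18S-1442 the SNORD127 library alone is lowest, and at 18S-1680 the libraries range from 0 to 0.209.

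18S-1680, listed with a predicted SNORD82 target and near the SNORD82 site 18S-1678, had the widest range of the other sites within clone C1. It scored 0.0688 in clone C1, 0 with empty vector and 0.209 with SNORD127, and 0.163 in clone C34 and 0.051 in the control clone. It was thus higher with SNORD127 than with empty vector by 0.209, and higher in clone C34 than in the control clone by 0.112, so that the 2 parts of the comparison gave opposite signs. Neither change was called. The scores of 18S-1680 lie near the floor of 0, and with flanks of 2 positions its change between lacking and having was 0. Clone C1 also varied by 0.151 at 28S-4560, 0.125 at 28S-4588, 0.106 at 18S-174, 0.101 at 28S-4937, 0.0943 at 18S-186, 0.093 at 18S-1410, 0.0801 at 28S-2739 and 0.0783 at 28S-1029, against 0.890 at 18S-1447.

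The end counts also allow nucleotides outside the listed sites to be compared. At the 5533 positions with a flanking mean of at least 50 in each library, the log2 ratio of the end count to the flanking mean was compared between the groups. Position 1448 of 18S, the nucleotide counted for 18S-1447, had the largest change of all, at 2.47 (SE 0.81) on the log2 scale with 1 count added. It was not called, nor was any other position (0% called, limma, smallest adjusted p 1.00; 63 positions at an unadjusted p under 0.05, and 19 by edgeR). By p it ranked 12th (unadjusted p = 0.0198). A fit without the control clone holds 1 library having SNORD127, the re-expression library, so its calls are not given. The median absolute change was 0.0554, and 6 positions changed by at least 1 on the log2 scale.

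The groups did not overlap at 200 positions in the higher direction (3.61%) and at 274 in the lower (4.95%), and 5 of these changed by at least 1. Apart from position 1448 these were position 3357 of 28S, at -1.49, and the nucleotides counted for 18S-683 (-1.27), 28S-389 (-1.04) and 18S-644 (-1.04), where the libraries had 0 to 34 ends. Position 3357 of 28S, named for its size after its values were seen, is not counted for a listed site. It had 4 ends in clone C1, 4 in clone C34, 0 with empty vector, 5 in the control clone and 7 with SNORD127, so its change rests on very few ends. The 10 positions with the smallest unadjusted p, 1562, 645, 1623 and 606 of 18S, 4825, 4702, 4703, 472 and 466 of 28S and 124 of 5.8S rRNA, had changes of -1.04 to 0.48, and their unadjusted p ranged from 0.00622 to 0.0170.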

How the data were processed

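Per the labels' protocols, alkaline hydrolysis of 100 ng total RNA (12 min, 95 °C) gave fragments near 30 nucleotides, from which small RNA libraries were made. The submitters' processing notes list cutadapt and Bowtie2. No version, reference or setting, nor which fragment ends were counted, is given in these sources. End counts were deposited by the authors for 7000 rRNA positions, whole numbers without normalization, and the authors deposited score C as a fraction for 120 sites. The formula with weights from 1 to 0.5 over 6 positions on either side, negative values set to 0, was inferred from the files and matched all 2280 deposited fractions to within 1e-09. The score is thus a ratio within 1 library, and depth sets its precision. Whether depth also shifted its level was not tested.

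Groups came from the titles. Score C was tested with limma 3.58.1 in R 4.3.3 (variance trend, two-sided, Benjamini-Hochberg over 120 sites, threshold 0.05), on the 5 libraries for lacking against having and on all 19, with a coefficient per group, for the 2 parts. The alternative that took the spread from all 19 libraries also had a coefficient per group. Counting intervals are 95% Poisson intervals by the delta method. Positions were compared on log2 ratios with 1 count added. edgeR 4.0.16 on the counts, with the log flanking mean as offset, was an alternative. The tests were tried on simulated counts. Tables and plots were made in Python 3.11.15 (pandas 2.3.3, scipy 1.17.1, numpy 2.4.6, matplotlib 3.10.9).

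Libraries, lists and tests were chosen with earlier results of these data known. Named sites were 18S-1447, listed sites within 20 nucleotides of it and 28S-4469; called sites (at most 20); the 10 largest changes without overlap; the 8 largest called in each part and in their difference; up to 4 members of each list; the 10 largest ranges in clone C1; the sites of SNORD14, SNORD43 and SNORD104; and the 10 positions with the smallest p. Alternatives were another source of the spread, no trend, a logit scale, unclipped scores, flanks of 2 positions, low counts left out (10% of sites), equal library medians, a clone block, edgeR and each library left out. The vector term, flanks without other listed sites, the mean without 18S-1447, the fits without replicate 2 of control knockdown with empty vector and the split by vector were chosen after seeing the data.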

Additional observations from a re-analysis of the deposited data

How the results depend on the processing

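The change at 18S-1447 between libraries lacking and having SNORD127 was negative under all 16 alternatives. Without 1 library it lay between -0.787 (no control clone) and -0.378 (no re-expression library), and with a clone block, which leaves the 3 libraries of clone C1, it was -0.832 (adjusted p = 0.893 by limma). The count of called sites rose from 0 to 1 with all 19 libraries and to 1 with equal library medians, both times 18S-1447. It stayed at 0 when each library lacking SNORD127 was left out. Without the re-expression library, or without the control clone, 1 library has SNORD127, so calls in those fits are not counted here. When the 5 libraries alone gave the spread for the knockout clones and for the difference of the 2 parts, the call fell on 18S-1705 alone. This site scored 0.0257 in the control clone and 0 in the others, so the call rests on 1 library near the floor of the score. For re-expression the count was 2 on a logit scale, with 28S-389 added, and 0 with the 5 libraries alone. In the scan, too, leaving out the control clone leaves 1 library having SNORD127, and the calls of that fit are not given. The difference in mean score ranged from -0.00724 to 0.00243 over the libraries left out. No paired analysis was possible because the labels give these 5 libraries no replicate numbers; shared origin entered only through the clone block. Depth limits sites with low flanking counts most.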
